A study of Mus musculus with 12 samples.

Results

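The nuclear genes of mitochondrial protein import and of the chaperones and proteases that receive imported proteins were examined in RNA-seq of mouse bone marrow-derived dendritic cells (DCs). Members were genes whose symbol in the table begins with Timm or Tomm followed by a digit, together with 16 named partners (*Hspa9*, *Hspd1*, *Hspe1*, *Grpel1*, *Grpel2*, *Pmpca*, *Pmpcb*, *Pam16*, *Dnajc19*, *Trap1*, *Lonp1*, *Clpp*, *Clpx*, *Afg3l2*, *Spg7* and *Htra2*), and they needed at least 10 counts in every library. A total of 42 genes matched by name and 39 met the count minimum, out of 15275 genes that met it and 55471 genes in the table. The 3 that missed it were *Tomm6*, *Tomm20l* and *Timm8a2*, with at most 11 counts in any library, and the members nearest the limit were *Tomm6os* (19 to 49 counts) and *Timm8a1* (39 to 152 counts). *Tomm6os* is a noncoding RNA antisense to *Tomm6* and encodes no import protein, so 38 members encode protein.

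The cells were grown from bone marrow of female C57BL/6 mice in the presence of the growth factor GM-CSF. All groups were transduced with a retrovirus that carries a short hairpin RNA (shRNA) and a human CD8 reporter, aimed at luciferase of the firefly in the control (shControl) or at *Ppargc1b* (sh*Ppargc1b*), which encodes PGC-1β, a co-activator of transcription, and transduced cells were selected on the reporter. The 4 groups of 3 libraries were shControl and sh*Ppargc1b* cells left unstimulated or given the antiviral cytokine interferon-β (IFN-β) for 6 h. The labels name neither separate mice or cultures nor which of the study's hairpins was used, so p-values measure the spread between these libraries, which may be technical.

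Nearly all mitochondrial proteins are made in the cytosol and enter through the TOM complex of the outer membrane. Proteins with a presequence then pass the TIM23 complex, pulled by a motor built on the chaperone mtHsp70, and a matrix peptidase removes the presequence. Carrier proteins travel with small TIM chaperones to the TIM22 complex, and the matrix chaperonin and several proteases fold or degrade what arrives.

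Library totals ranged from 49.92 to 77.73 M counts. The target of the hairpin, *Ppargc1b*, was at 33.3 to 36.7 CPM (counts scaled to library size) in unstimulated shControl and 18.6 to 20.3 in unstimulated sh*Ppargc1b* libraries, and at 23.6 to 31.4 and 15.5 to 20.9 CPM with IFN-β, with no overlap between hairpins in either condition (log2 fold change -0.83 ± 0.105 SE and -0.57 ± 0.106 SE). All 12 dendritic and all 12 macrophage marker genes were detected. The summed level of the macrophage markers was 13129 to 13742 CPM in unstimulated shControl but 8614 to 9070 CPM in unstimulated sh*Ppargc1b* libraries. Most of that difference was *Lyz2* (mean of 10350 against 6001 CPM), and genes of the list went in both directions: *Mrc1*, *Lyz2* and *Mertk* were lower, *Cd14* was higher (0.44), and *Csf1r* (-0.02), *Adgre1* (0.09) and *Cd68* (-0.01) were not called. The dendritic markers summed to 4983 to 5887 and 5763 to 6646 CPM. Neutrophil markers summed to 47.1 to 84.6 CPM in unstimulated shControl and 84.6 to 141.1 CPM in unstimulated sh*Ppargc1b* libraries, with 2 of 10 called higher (*S100a8* and *Cxcr2*). Mast cell and basophil markers summed to 8.80 to 17.7 and 22.2 to 26.7 CPM, with 2 of 7 tested called higher (*Gata2*, 1.64, and *Kit*, 0.93). Markers of lymphocytes and erythroid cells summed to under 1 CPM in every library. In bulk RNA, fewer cells of a type and less RNA per cell cannot be told apart. Library sizes were adjusted with edgeR's TMM factors. Over the 18228 tested genes the median log2 fold change with IFN-β was -0.03 in shControl and -0.02 in sh*Ppargc1b* cells, and unadjusted library totals put it at -0.27 and -0.22.

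Per kilobase of exon, member levels in unstimulated shControl cells spanned a wide range. The highest was *Timm8b*, a small TIM chaperone, at 41.9 ± 1.40 CPM per kb, followed by *Hspa9*, which encodes mtHsp70, at 37.6 ± 0.448. Next came the receptor subunit *Tomm22* (25.0 ± 0.666), the co-chaperonin *Hspe1* (24.1 ± 2.30) and the small subunit *Tomm7* (23.1 ± 0.746), which lay close together, with both neighbours of *Hspe1* inside its SD (n = 3 each). The lowest that encodes protein was *Timm8a1*, at 1.15 ± 0.226 CPM per kb, and *Tomm6os* was at 0.234 ± 0.0533. Read pairs that fit more than 1 place were not counted, and 47.0% of the 100-base stretches of *Timm23*, 38.8% of those of *Timm8a1* and 23.9% of those of *Hspd1* also occur in other genes, so these levels are uncertain.

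The comparison of IFN-β-treated with unstimulated shControl cells asks how the import machinery responds to the cytokine. Of the 39 members, 20 fell and 5 rose (edgeR quasi-likelihood test with Benjamini-Hochberg adjustment over all genes, adjusted p under 0.05). Of all tested genes 48.2% were called, 24.6% lower and 23.7% higher. The members' median was -0.16 on the log2 scale, beside -0.03 for the tested genes as a whole, and the libraries of both groups did not overlap for 28 members, against 56.7% of all tested genes. With library totals in place of TMM, 31 members fell and 2 rose, against 8294 lower and 2598 higher of all 18228 tested genes. All 20 that fell with TMM were among those 31, and the 2 that rose were *Tomm70a* and *Htra2*. The other 3 rises, of *Pmpcb*, *Spg7* and *Tomm34*, were lost under that scaling, where *Spg7* and *Tomm34* had negative fold changes.

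**Figure D1:**
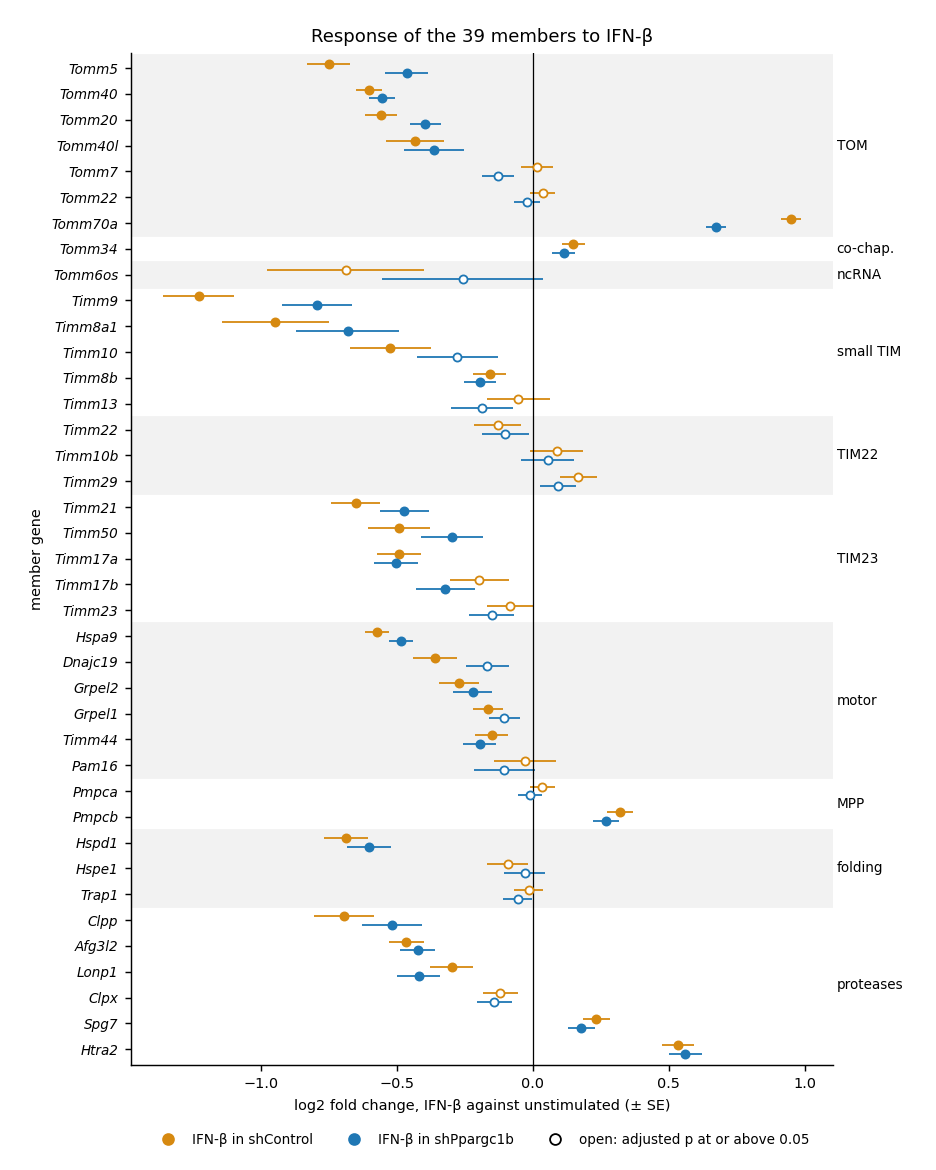
Log2 fold change of each of the 39 members with IFN-β (horizontal axis, ± SE) in shControl and in sh*Ppargc1b* cells, grouped by role (MPP: matrix processing peptidase); filled points have an adjusted p under 0.05. *Timm9* lies at -1.23 and *Tomm70a* at 0.95 in shControl cells, the ends of the range. *Pmpcb*, *Spg7* and *Tomm34* are filled on the right, calls that were lost with unadjusted library totals.

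The largest rise was that of *Tomm70a*, which encodes the TOM receptor for carrier precursors that also binds cytosolic Hsp70 and Hsp90 and serves as an adaptor for the antiviral signalling protein MAVS. It was at 125.4, 120.3 and 124.5 CPM in unstimulated shControl libraries and at 235.5, 239.9 and 240.3 CPM with IFN-β. Every IFN-β-treated library was above every unstimulated one. The rise was 1.93-fold (log2 fold change 0.95 ± 0.0361 SE, adjusted p = 4.09e-12), and with library totals the log2 fold change was 0.71. The gene lies on chromosome 16 (57121703 to 57156705, + strand, GRCm38), and the 239 bases before its first annotated exon are shown because they hold the only match among the 32 members' promoters available to the core of the interferon-stimulated response element (ISRE), the site read by interferon-activated factors. The sequence is from RefSeq (GRCm38.p6, chr16:57121464-57121702, + strand), and the capitals mark first the ISRE core, whose centre is 115 bases before the RefSeq start, and then a core of the ETS family site.
Tomm70a: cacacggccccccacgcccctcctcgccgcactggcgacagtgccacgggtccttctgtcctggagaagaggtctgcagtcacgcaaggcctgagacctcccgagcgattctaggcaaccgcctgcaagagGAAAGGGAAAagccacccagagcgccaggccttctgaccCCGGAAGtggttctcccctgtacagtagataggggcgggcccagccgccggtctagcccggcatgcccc

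The other TOM genes did not follow it. *Tomm40*, which encodes the pore, fell from 33.9, 35.1 and 34.3 CPM to 22.8, 22.4 and 22.9 CPM (log2 fold change -0.60 ± 0.0485, adjusted p = 4.91e-08). *Tomm5*, a small subunit that helps assemble the pore, fell from 11.6, 12.6 and 13.5 CPM to 7.39, 7.52 and 7.51 CPM (-0.75 ± 0.0800, adjusted p = 1.21e-06). Neither gene had overlapping groups. *Tomm20*, the presequence receptor, fell by 0.56 and *Tomm40l*, a paralog of the pore, fell by 0.43 on the log2 scale. Of the exon bases of *Tomm40l*, 64.3% overlap *Nr1i3* on the other strand, which had 29 counts over all libraries. The central receptor *Tomm22* (0.04) and *Tomm7* (0.02) did not pass the test with TMM, and both fell with library totals (-0.20 and -0.22). Within each library, the ratio of *Tomm70a* to *Tomm20* in CPM per kb was 2.03 ± 0.0530 without and 5.77 ± 0.209 with IFN-β in shControl cells (SD, n = 3), a comparison that the scaling cannot move. *Tomm34*, a cytosolic co-chaperone of import, was 0.15 higher on the log2 scale with TMM, a call lost without unstimulated shControl replicate 1 (adjusted p = 0.0657) and a fold change of -0.09 with library totals.

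Among the small TIM chaperones, which shield hydrophobic precursors in the intermembrane space, 4 of 5 fell. The largest fall of any member was that of *Timm9*, which pairs with *Timm10* in a ring that guides carrier proteins. It was at 9.41, 8.83 and 10.1 CPM in unstimulated shControl libraries and at 4.23, 4.33 and 3.57 CPM with IFN-β, so that the groups lay far apart. The fold was 0.427 (log2 fold change -1.23 ± 0.131, adjusted p = 1.25e-06). *Timm8a1*, which pairs with *Timm13*, fell from 1.98, 1.34 and 1.58 CPM to 0.842, 0.851 and 0.844 CPM (-0.95 ± 0.197, adjusted p = 0.000907). Its near-identical copies leave that value uncertain. *Timm10* fell by 0.52 and *Timm8b* by 0.16 on the log2 scale. *Timm10* was lost without IFN-β-treated shControl replicate 3 (adjusted p = 0.0659), and *Timm8b* was lost in 7 of 12 fits that each left out a library (adjusted p = 0.0580 to 0.217). *Timm13* did not pass the test with TMM (-0.05, adjusted p = 0.738), and was at -0.29 with library totals (adjusted p = 0.0405). The ratio of *Timm9* to *Timm10* was 0.401 ± 0.0191 without and 0.247 ± 0.0227 with IFN-β.

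*Timm9* lies on chromosome 12 (71123173 to 71136684, - strand, GRCm38). The 163 bases before its first annotated exon are shown because the gene had the largest fall. Like every other promoter available except that of *Tomm70a*, they hold no match to the ISRE core. The sequence is from RefSeq (GRCm38.p6, chr12:71136685-71136847, - strand), and the capitals mark an E-box, the core that MYC and related factors read.
Timm9: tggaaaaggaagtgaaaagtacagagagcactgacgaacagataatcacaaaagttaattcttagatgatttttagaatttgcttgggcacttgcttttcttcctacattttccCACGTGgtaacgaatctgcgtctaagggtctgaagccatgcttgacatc

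Genes of the inner membrane translocases were lower or did not pass the test. In the TIM23 complex, *Timm21* (-0.65), *Timm50* (-0.49) and *Timm17a* (-0.49) fell with adjusted p of 1.98e-05, 0.00202 and 0.000106. *Timm17b*, the paralog of *Timm17a*, was at 6.07, 5.60 and 5.66 CPM without and 4.34, 5.43 and 5.32 CPM with IFN-β (-0.20, adjusted p = 0.158). *Timm23*, which encodes the channel, did not pass the test either (-0.08, adjusted p = 0.443). With library totals *Timm17b* (-0.44, adjusted p = 0.00239) and *Timm23* (-0.32, adjusted p = 0.00351) were both called lower. In the TIM22 complex, which inserts carrier proteins, *Timm22* (-0.13), *Timm29* (0.17) and *Timm10b* (0.09) did not pass the test with TMM. With library totals *Timm22* was called lower (-0.37, adjusted p = 0.00199). *Timm29*, a subunit of the complex, lay at the threshold (adjusted p = 0.0501). It was called higher with RLE size factors, DESeq2, limma-voom, the block per run of library codes, the fit of the 2 groups alone and in 5 of 12 fits without a library (adjusted p = 0.0142 to 0.0419), and was at -0.07 with library totals (adjusted p = 0.387). *Timm10b*, which docks the small TIM ring on TIM22, was at -0.15 with library totals.

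In the import motor, 5 of 6 genes fell. *Hspa9* went from 160.2, 162.1 and 164.1 CPM to 113.1, 109.8 and 104.5 CPM (-0.57 ± 0.0452, adjusted p = 3.74e-08). The co-chaperone *Dnajc19* fell by 0.36 on the log2 scale. The nucleotide exchange factors *Grpel2* and *Grpel1* fell by 0.27 and 0.16, and the tether *Timm44* by 0.15. The last 3 calls were less steady: *Grpel2* was lost without IFN-β-treated shControl replicate 3 (adjusted p = 0.0510), *Grpel1* in 4 of 12 fits without a library (0.0572 to 0.115) and *Timm44* in 8 of 12 (0.0604 to 0.159). *Pam16*, a regulator of the motor, was at -0.03 (adjusted p = 0.864). The noncoding *Tomm6os* was at -0.69 ± 0.289 (adjusted p = 0.0627).

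In the matrix, with TMM scaling, some partners were called and others not. *Pmpcb*, the catalytic subunit of the presequence peptidase, was at 28.5, 28.3 and 28.7 CPM in unstimulated shControl libraries and 34.2, 37.5 and 35.1 CPM with IFN-β (0.32 ± 0.0479, adjusted p = 3.97e-05), and its partner *Pmpca* was at 0.04 (adjusted p = 0.546). The ratio of *Pmpcb* to *Pmpca* was 0.453 ± 0.0172 without and 0.552 ± 0.0303 with IFN-β. With library totals *Pmpcb* was at 0.08 (adjusted p = 0.145) and *Pmpca* at -0.20 (adjusted p = 0.00115).

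*Hspd1* encodes the chaperonin Hsp60 and *Hspe1* its lid Hsp10, and they lie head to head on chromosome 1. *Hspd1* fell from 48.3, 47.2 and 51.6 CPM to 32.6, 28.6 and 30.4 CPM (-0.68 ± 0.0815, adjusted p = 4.01e-06). *Hspe1* was at 37.0, 31.7 and 38.0 CPM without and 32.9, 32.5 and 34.6 CPM with IFN-β, and these groups overlapped (-0.09 ± 0.0759, adjusted p = 0.348). The ratio of *Hspe1* to *Hspd1* was 1.30 ± 0.0868 without and 1.96 ± 0.132 with IFN-β. *Trap1*, the mitochondrial Hsp90, was at -0.01 (adjusted p = 0.850). With library totals *Hspd1* (-0.92), *Hspe1* (-0.33, adjusted p = 0.00155) and *Trap1* (-0.25, adjusted p = 0.00112) were all called lower.

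*Hspd1* and *Hspe1* share a start region. Its 107 bases with no annotated exon are shown because, with TMM scaling, *Hspd1* was called with IFN-β and *Hspe1* was not. The stretch is from RefSeq (GRCm38.p6, chr1:55088025-55088131, + strand, in the direction of *Hspe1*). The capitals mark a heat shock element (HSE) core that overlaps ETS cores, and then the half-site of estrogen-related receptors (ERR), nuclear receptors that PGC-1β co-activates.
Hspe1: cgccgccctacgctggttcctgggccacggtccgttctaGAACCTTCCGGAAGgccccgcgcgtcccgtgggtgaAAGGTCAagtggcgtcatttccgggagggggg

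Of the 6 proteases, 2 rose and 3 fell. *Htra2*, a quality-control protease of the intermembrane space, rose from 23.9, 24.2 and 26.1 CPM to 35.0, 36.2 and 36.3 CPM (0.53 ± 0.0602, adjusted p = 2.24e-06), and by 0.29 with library totals. Of its exon bases, 25.6% overlap *Aup1* on the other strand, which had 59622 counts over all libraries. A further overlap of 18.2% is with *Loxl3*, also on the other strand, with 2459 counts. The strand setting of the counts was not given, and the part of these overlaps in the rise was not tested. *Spg7* rose by 0.23 with TMM but was at -0.01 with library totals. *Clpp*, the peptidase of the ClpXP protease, fell from 6.12, 6.75 and 6.28 CPM to 4.23, 3.82 and 3.81 CPM (-0.69 ± 0.110, adjusted p = 7.65e-05). Its unfoldase *Clpx* was at -0.12 (adjusted p = 0.145), and at -0.36 with library totals (adjusted p = 0.000126). The ratio of *Clpx* to *Clpp* was 1.67 ± 0.0503 without and 2.48 ± 0.165 with IFN-β. *Afg3l2*, which forms the inner membrane m-AAA protease with *Spg7*, fell by 0.46 and the matrix protease *Lonp1* by 0.30 on the log2 scale. The ratio of *Afg3l2* to *Spg7* was 2.47 ± 0.171 without and 1.52 ± 0.0675 with IFN-β.

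**Figure D2:**
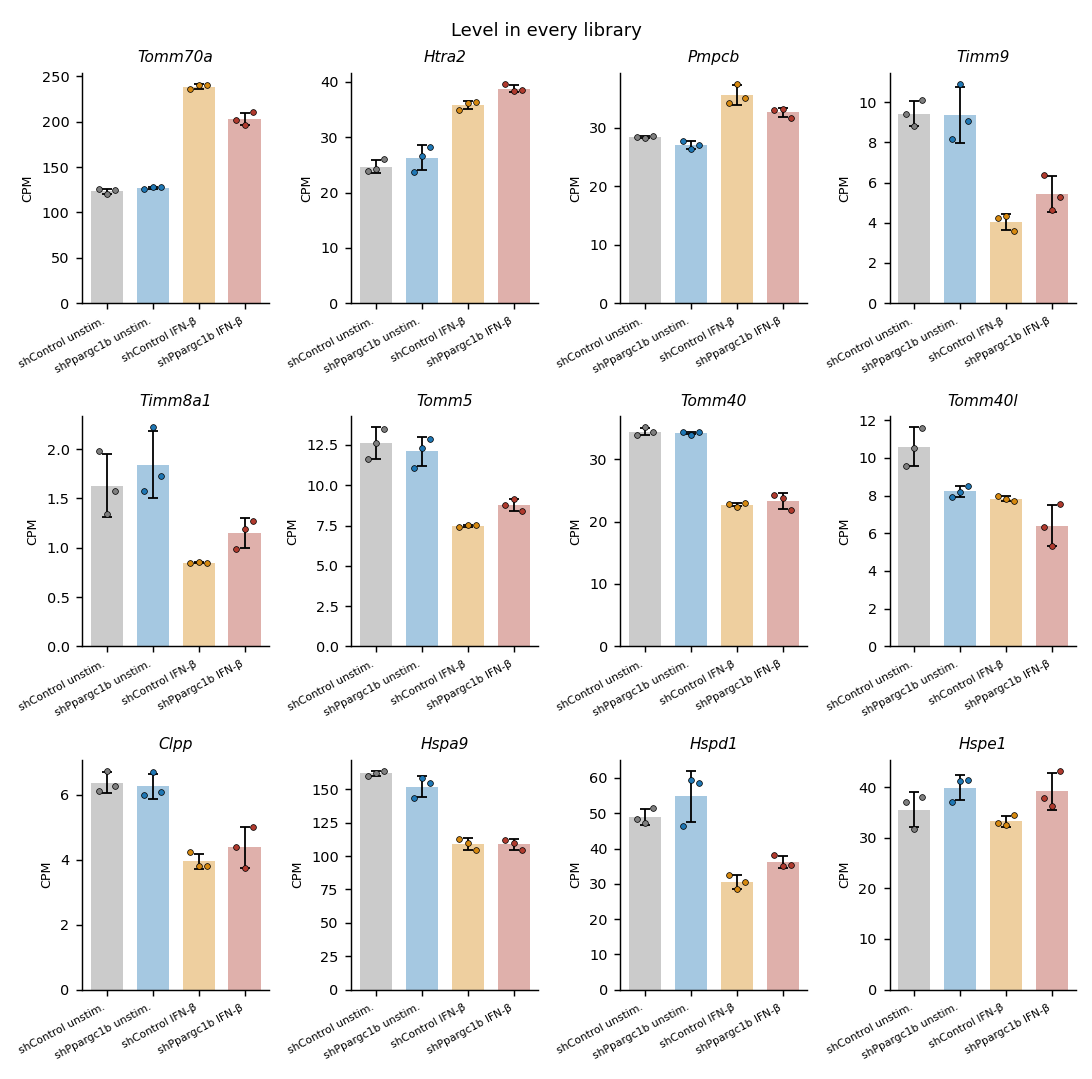
CPM of 12 members in every library (points), with the mean (bar) and SD (line) of 3 libraries in each of the 4 groups. *Tomm70a* sits between 235.5 and 240.3 in IFN-β-treated shControl libraries and between 196.5 and 210.1 in IFN-β-treated sh*Ppargc1b* libraries.

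In sh*Ppargc1b* cells IFN-β gave 18 falls and 5 rises among the 39 members, against 42.6% of all tested genes called, 21.2% lower and 21.4% higher, with groups that did not overlap for 24 members against 50.1% of all tested genes. The members' median was -0.19, with -0.02 over all tested genes. Of the calls, 22 were shared with shControl cells and all 22 had the same direction, with *Tomm70a* (0.67), *Htra2* (0.56) and *Pmpcb* (0.27) the highest and *Timm9* (-0.79), *Timm8a1* (-0.68) and *Hspd1* (-0.60) the lowest. With library totals 31 fell and 2 rose (*Tomm70a* and *Htra2*), against 7551 lower and 2340 higher of all 18228 tested genes. *Timm9* was at 8.17, 10.9 and 9.07 CPM in unstimulated and 6.38, 4.64 and 5.28 CPM in IFN-β-treated sh*Ppargc1b* libraries. *Dnajc19*, *Grpel1* and *Timm10* were called in shControl cells only and *Timm17b* in sh*Ppargc1b* cells only, and the interaction test called none of these differences. Several calls rested on single libraries: *Timm8a1* was lost without unstimulated sh*Ppargc1b* replicate 2 (adjusted p = 0.0578), *Tomm40l* without IFN-β-treated sh*Ppargc1b* replicate 2 (0.0758), *Timm44* in 2 of 12 fits, *Grpel2* and *Timm8b* in 3, *Timm17b* in 4, *Tomm34* in 6 and *Timm50* in 8.

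The difference between the knockdown effects with and without IFN-β (an interaction, positive where the effect with IFN-β is higher) asks whether the response to IFN-β differs between the hairpins. It was called for 1 of 39 members, *Tomm70a*, which was lower, against 0.73% of all tested genes (0.669% lower and 0.0603% higher). In unstimulated cells *Tomm70a* was at 126.1, 127.7 and 127.8 CPM in sh*Ppargc1b* libraries, slightly above the shControl libraries (0.04, adjusted p = 0.436). With IFN-β it was at 202.2, 196.5 and 210.1 CPM, below all shControl libraries. The interaction was -0.28 ± 0.0506 on the log2 scale (adjusted p = 0.0208), so the rise with IFN-β was 1.60-fold in sh*Ppargc1b* and 1.93-fold in shControl cells. The call was lost when any of the 3 unstimulated shControl libraries or unstimulated sh*Ppargc1b* replicates 2 or 3 was left out (adjusted p = 0.0532 to 0.0820), with the same direction in each. It was also lost with library totals (-0.24, adjusted p = 0.0543). The ratio of *Tomm70a* to *Tomm20* with IFN-β was 4.25 ± 0.0711 in sh*Ppargc1b* against 5.77 ± 0.209 in shControl cells. No member had a positive interaction past the threshold, and 2 had an unadjusted p under 0.05 in edgeR (*Timm9*, 0.44, and *Tomm5*, 0.29). After adjustment DESeq2 and limma-voom called 0 as well.

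**Figure D3:**
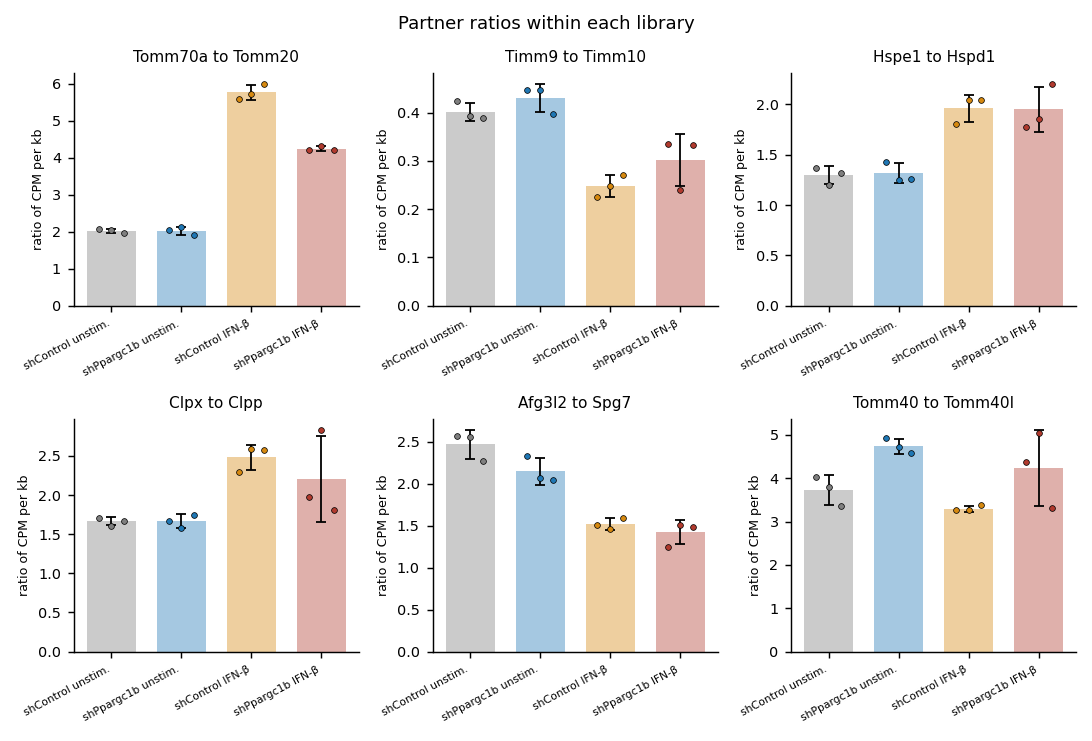
Ratio of CPM per kb between 2 partners within each library (points), with the mean (bar) and SD (line) of 3 libraries in the 4 groups. *Tomm70a* to *Tomm20* went from 2.03 to 5.77 and *Hspe1* to *Hspd1* from 1.30 to 1.96 with IFN-β in shControl cells.

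The knockdown without IFN-β asks whether these genes depend on PGC-1β at rest. Among the 39 members 1 was lower, *Tomm40l*, against 23.6% of all tested genes called in either direction (12.4% higher and 11.1% lower). *Tomm40l* was at 9.57, 10.5 and 11.6 CPM in shControl and 7.94, 8.19 and 8.53 CPM in sh*Ppargc1b* libraries, with no overlap (-0.36 ± 0.106, adjusted p = 0.0213). The call was lost without unstimulated shControl replicate 2 or 3 or sh*Ppargc1b* replicate 1 or 2 (adjusted p = 0.0511 to 0.0958). No member was called higher by edgeR, with 3 at an unadjusted p under 0.05 (*Pmpca*, *Tomm7* and *Hspe1*), and DESeq2 and limma-voom each called 1 after adjustment. The members' median was -0.03, with -0.00 over all tested genes, and groups did not overlap for 8 members, against 36.8% of all tested genes.

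With IFN-β the knockdown changed 9 of 39 members, 5 higher and 4 lower, against 24.2% of all tested genes, 11.5% higher and 12.7% lower. This contrast and the IFN-β contrast in shControl share the IFN-β-treated shControl libraries. The higher genes were *Timm9* (0.43 ± 0.135), the chaperonin genes *Hspd1* (0.25 ± 0.0821) and *Hspe1* (0.23 ± 0.0759), *Tomm20* (0.21 ± 0.0580) and *Grpel1* (0.17 ± 0.0569). All 5 were below or, for *Hspe1*, overlapping their unstimulated levels with IFN-β in shControl cells. The lower genes were *Timm10b* (-0.28 ± 0.0975), *Tomm70a* (-0.23 ± 0.0357, adjusted p = 0.000194), *Trap1* (-0.17 ± 0.0536) and *Tomm22* (-0.15 ± 0.0465). *Hspd1* was at 38.1, 35.1 and 35.3 CPM in IFN-β-treated sh*Ppargc1b* libraries, above all 3 IFN-β-treated shControl libraries. Groups did not overlap for 17 members, against 38.7% of all tested genes.

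*Trap1* was at 33.5, 32.0 and 32.9 CPM in IFN-β-treated shControl and 30.0, 27.6 and 29.9 CPM in IFN-β-treated sh*Ppargc1b* libraries, without overlap. *Tomm22* was at 41.5, 42.6 and 42.8 CPM in the former and 40.2, 36.6 and 37.4 CPM in the latter, also without overlap. Unstimulated, *Trap1* was at 32.7, 32.3 and 34.4 CPM in shControl and 29.0, 29.7 and 32.1 CPM in sh*Ppargc1b* libraries, and it did not pass the test there (-0.13, adjusted p = 0.0947).

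Partner ratios in CPM per kb were also compared between the hairpins, without a test. *Tomm40* to *Tomm40l* was 3.73 ± 0.340 in unstimulated shControl and 4.74 ± 0.172 in unstimulated sh*Ppargc1b* cells, and 3.30 ± 0.0695 and 4.24 ± 0.870 with IFN-β. The other pairs in sh*Ppargc1b* cells went the same way with IFN-β as in shControl cells: *Hspe1* to *Hspd1* was 1.32 ± 0.103 without and 1.95 ± 0.224 with it, *Afg3l2* to *Spg7* was 2.15 ± 0.160 and 1.42 ± 0.143, and *Timm9* to *Timm10* was 0.430 ± 0.0285 and 0.302 ± 0.0536. *Clpx* to *Clpp* was 1.67 ± 0.0856 and 2.21 ± 0.549, with the widest relative spread of these pairs.

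Of the 9 calls of the knockdown with IFN-β, that of *Tomm70a* passed in every fit that left out a library. Among IFN-β-treated libraries, *Timm9* was lost without replicate 1 or 3 of either hairpin (adjusted p = 0.0542 to 0.164), *Hspd1* without shControl 2 or 3 or any sh*Ppargc1b* library (0.0591 to 0.177), and *Hspe1* without any shControl or sh*Ppargc1b* 1 or 3 (0.0634 to 0.224). *Tomm20* was lost without shControl 3 or sh*Ppargc1b* 1 or 3 (0.0569 to 0.0958) and *Grpel1* without any shControl or sh*Ppargc1b* 2 or 3 (0.0826 to 0.186). *Timm10b* was lost in 10, *Tomm22* in 9 and *Trap1* in 8 of the 12 fits (0.0502 to 0.149). Averaged over both conditions, the knockdown raised 4 members (*Hspd1*, *Hspe1*, *Grpel1* and *Tomm20*) and lowered 6 (*Tomm40l*, *Timm10b*, *Trap1*, *Tomm22*, *Pmpcb* and *Tomm70a*), against 35.1% of all tested genes, 17.4% higher and 17.7% lower. Of these averaged calls, that of *Pmpcb* was lost in 8 of 12 fits without a library (adjusted p = 0.0507 to 0.121) and that of *Tomm20* in 3 (0.0515 to 0.0789). The macrophage markers were at 13044 to 13927 CPM in IFN-β-treated shControl and 8502 to 9469 CPM in IFN-β-treated sh*Ppargc1b* libraries. Most of this was again *Lyz2* (mean of 9666 against 5586 CPM), with 6 of the 12 genes lower, 1 higher (*Cd14*, 0.23) and 5 not called. In the same libraries neutrophil markers summed to 54.0 to 96.5 and 86.1 to 145.3 CPM, and mast cell and basophil markers to 7.84 to 16.1 and 13.0 to 22.4 CPM. The part of these markers in the knockdown results was not tested.

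**Figure D4:**
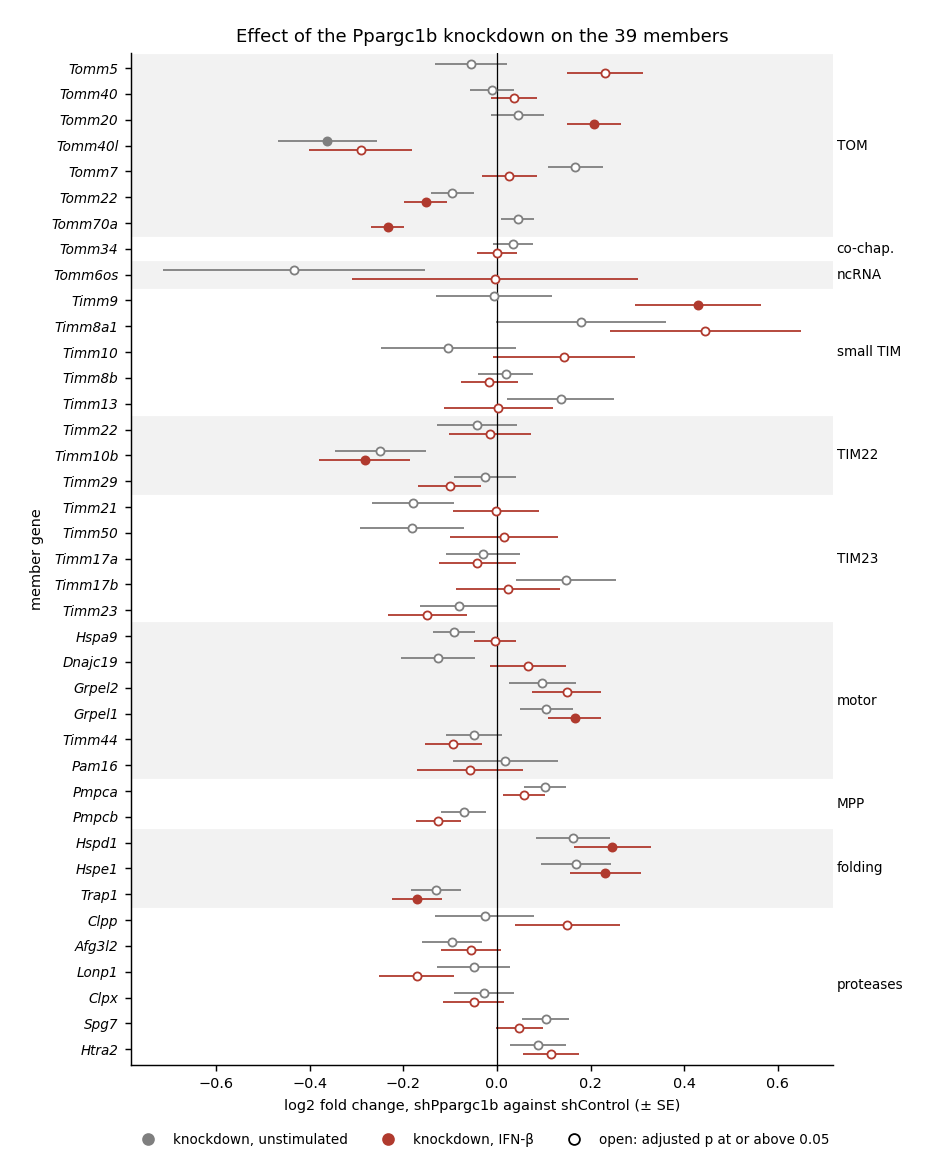
Log2 fold change of each of the 39 members with the *Ppargc1b* knockdown (horizontal axis, ± SE), without and with IFN-β, grouped by role (MPP: matrix processing peptidase); filled points have an adjusted p under 0.05. *Tomm40l* is the filled point without IFN-β, at -0.36, and 9 are filled with it.

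Other genes of the pathway were counted in the same fits. Of 18 further import and insertion genes, 9 fell in shControl cells with IFN-β, the furthest being *Bcs1l* (-0.97), a chaperone of complex III assembly, and *Chchd4* (-0.85), the oxidoreductase of the intermembrane space import route. Of 15 further mitochondrial chaperone and protease genes, 9 fell and 1 rose: *Atp23* (-0.69) and the prohibitin *Phb* (-0.64) were lowest, and the protease *Yme1l1* (0.40) was the rise. With the knockdown in unstimulated cells, 4 of the 18 fell, among them *Samm50* (-0.29), the outer membrane barrel insertase, and *Mtx2* (-0.22). In the second list *Pink1* (-0.50), a kinase that is degraded after import, and *Hscb* (-0.33) fell.

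Counts for neighbouring gene lists in the same fits are given for scale. Of 77 mitochondrial ribosomal protein genes, 4 rose and 8 fell with the knockdown in unstimulated cells, and 11 rose and 41 fell with IFN-β in shControl cells. Of 38 genes with Nduf names of complex I subunits, 20 fell with the knockdown and 14 fell with 1 rise for IFN-β. That list was matched by name and holds *Ndufa4* (-0.11 with the knockdown) and *Ndufa4l2* (-0.80), so it may not be complex I subunits only. Members and the Nduf genes thus had 2.56% and 52.6% called lower with the knockdown, beside 11.1% of all tested genes. The difference between the lists was not tested. Of 21 cytosolic heat shock chaperone genes, 8 rose with the knockdown (up to 0.71 for *Hspa1b*), and with IFN-β 8 rose (*Hspa1b* by 2.13) and 8 fell. Of 14 endoplasmic reticulum chaperone genes, 9 rose with the knockdown (*Creld2*, 0.48, and *Hspa5*, 0.46) and 11 rose with IFN-β (*Hspa5*, 1.15). Summed proliferation genes were at 382.8 to 494.4 CPM in unstimulated and 351.6 to 394.7 CPM in IFN-β-treated shControl libraries. In sh*Ppargc1b* libraries they were at 299.7 to 428.3 CPM unstimulated and 271.1 to 369.8 CPM with IFN-β. Their part in the IFN-β and knockdown results was not tested.

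**Figure D5:**
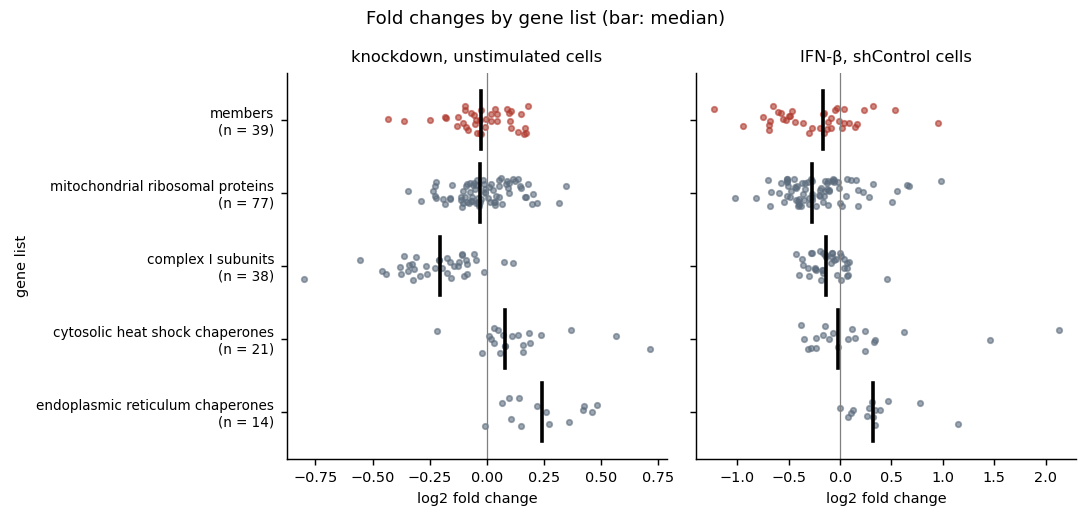
Log2 fold change of single genes (points) and list median (bar) for the members and 4 neighbouring lists, with the knockdown in unstimulated cells (left) and with IFN-β in shControl cells (right). The members' medians are -0.03 and -0.16 with TMM scaling.

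Of 10 regulators linked to mitochondrial stress responses, *Myc* was the lowest with IFN-β in shControl cells (-1.31), *Atf5* was at -0.89, and *Ddit3* was the highest (1.09). With the knockdown *Myc* was higher both without (0.39) and with IFN-β (0.87). Promoter sequence was available in RefSeq for 32 of the 39 members, and the 250 bases before the start were searched on both strands for 8 motifs, whose matches are descriptions and not binding sites. The ISRE core was found in 1 of 32 (*Tomm70a*), against 2.98% of 32851 mouse promoters, and *Htra2* was among the 7 genes without an entry. The GAS core TTCNNNGAA, which STAT dimers read, was found in 3 (*Clpp*, *Timm13* and *Timm22*), against 7.02% of promoters. The HSE core GAANNTTC was in 3 (*Hspd1*, *Hspe1* and *Timm9*), against 6.69%. The ETS core CCGGAAG was in 12, against 6.91%, and in *Hspd1* and *Hspe1* it overlaps the HSE core. The ERR half-site AAGGTCA was in 4 (*Hspd1*, *Hspe1*, *Timm8b* and *Trap1*), against 4.08%, the E-box CACGTG in 5, against 6.02%, and the core site of NRF1 in 4, against 3.74%. The YY1 core AAGATGGCG was in 0, against 0.606%. *Hspd1*, *Timm22* and *Tomm34* have 2 RefSeq starts each, and a match at either was counted. The GAS match of *Timm22* is at 1 of its starts, while the 32851 promoters were counted start by start. The HSE, ETS and ERR matches of *Hspd1* and *Hspe1* are the same sites, counted for both genes.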

How the data were processed

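The authors sequenced total RNA depleted of ribosomal RNA and deposited gene counts (whole read pairs per gene, not normalized). The submitters' processing notes name Trim Galore 0.6.0, STAR 2.7.8a and the mm10 (GRCm38) build, and per the study's methods counts came from STAR. The strand setting was not given in the sources used here. Groups came from the labels, and replicates were numbered in accession order.

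Genes passing edgeR's filterByExpr (18228, holding 99.96% of counts) were fitted with edgeR 4.0.16 in R 4.3.3 by the quasi-likelihood test, with 1 coefficient per group, TMM factors and Benjamini-Hochberg adjustment over all genes. Steps were tested on simulated data. DESeq2 1.42.0, limma 3.58.1 (voom), other scalings, no filter, a block per run of library codes, fits of the 2 groups compared and fits without each library were alternatives. Exon lengths and overlaps came from a GENCODE annotation of GRCm38, and promoters from RefSeq.

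The members and lists were chosen with earlier results of these data known. Named genes were the 3 largest rises and falls past the threshold per contrast, each called interaction, partner pairs, the highest and lowest levels, and up to 2 rises and 2 falls per neighbouring list. The other members were named to account for each.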

Additional observations from a re-analysis of the deposited data

Results flagged for a closer look

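The effect of the knockdown on *Tomm70a* differed between the conditions: the difference of its log2 fold changes with and without IFN-β was -0.28 (SE 0.0506, edgeR adjusted p = 0.0208). Groups of 3 libraries were too small for a test of single outlying libraries.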

How the results depend on the processing

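Of 107 member results followed over the alternatives, 69 were called, 37 of them under every alternative. With library totals IFN-β lowered 31 members in each hairpin group and raised 2 in each. Of the 18228 tested genes, that scaling put 8294 lower and 2598 higher in shControl cells, and 7551 and 2340 in sh*Ppargc1b* cells. Under it 1 member was lower with the knockdown in IFN-β-treated cells, against 1983 of all tested genes. A lower interaction was called for 0 members, against 67 of all tested genes. Directions turned under that scaling for IFN-β in shControl cells in *Pmpca* (-0.20), *Spg7* (-0.0051), *Tomm22* (-0.20), *Tomm34* (-0.0909), *Tomm7* (-0.22), *Timm29* (-0.07) and *Timm10b* (-0.15), and in sh*Ppargc1b* cells in *Spg7* (-0.0246), *Tomm34* (-0.0884), *Timm29* (-0.11) and *Timm10b* (-0.15). The knockdown in unstimulated cells raised 2 members without a filter, 1 with DESeq2, 1 with limma-voom and 2 with a block per run of library codes. In IFN-β-treated cells it lowered 1 without a filter and 1 in a fit of the 2 groups alone, and raised 2 with limma-voom. Without a filter IFN-β raised 3 in sh*Ppargc1b* cells, and the averaged knockdown lowered 3. With the block the averaged knockdown raised 7. The cause was not tested. Leaving out 1 library gave 0 to 2 higher and 0 to 2 lower members for the knockdown in unstimulated cells, 0 to 6 and 1 to 4 in IFN-β-treated cells, 4 to 6 and 15 to 21 for IFN-β in shControl, 4 to 5 and 14 to 18 in sh*Ppargc1b* cells, 3 to 8 and 5 to 6 for the averaged knockdown, and 0 to 1 lower interactions. No paired analysis was possible because the labels carry no replicate numbers, and the block above used runs of library codes, whose meaning the labels do not give. Deviations of libraries within a run of codes had correlations of 0.0276 to 0.146 over 18 pairs, and pairs from different runs were not compared. Over the 18228 tested genes the block called 86 higher and 339 lower interactions, against 11 and 122 without it.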
